A study of Mus musculus with 8 samples.

Results

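The genes described here are 37 genes of glycolysis and of the hypoxia response, out of 23413 genes in the count table. They were chosen by name for their roles, by a rule that uses no measured value but was set with earlier results of these data known: glucose transporters, hexokinases, the other glycolytic enzymes, the lactate and pyruvate branch, the hypoxia-inducible factor HIF-1 alpha with its prolyl hydroxylases, and other HIF target genes. All 37 were in the table and all 37 had enough counts to be tested in every comparison.

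Glycolysis splits glucose into pyruvate in the cytosol, and lactate dehydrogenase converts pyruvate to lactate, which leaves the cell through monocarboxylate transporters. When oxygen is low, prolyl hydroxylases stop marking HIF-1 alpha for destruction, and the factor then binds short hypoxia response elements in DNA and raises transcription of glucose transporters, glycolytic enzymes and other target genes. Macrophages in tumors are often found in poorly supplied areas, and the balance between glycolysis and respiration is known to differ between macrophage activation states.

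Tumor-associated macrophages (TAMs) came from 8 male C57BL/6 mice, 8 to 10 weeks old when B16F10 melanoma cells, a mouse melanoma line, were placed under the skin of the flank. The DMSO group (2 mice) received the vehicle, the I.P. group (4 mice) received thiostrepton, a thiopeptide antibiotic, by intraperitoneal injection, and the S.C. group (2 mice, called IS in the sample labels) received thiostrepton by injection beside the tumor. The methods describe a sort for CD45+F4/80+CD11b+Gr-1- cells and a lower dose for the injection beside the tumor, but they do not state the I.P. dose of these 4 mice or how the vehicle was given to the 2 DMSO mice, so route and dose cannot be told apart wherever S.C. and I.P. mice are compared. Each mouse gave 1 RNA-seq library.

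The libraries held 14127506 to 17577466 gene counts, and 3 counts in a library, taken as the floor, were worth 0.169 to 0.218 CPM (counts scaled to the same library size). Levels below are CPM scaled by TMM factors, which correct for differences in RNA composition between libraries. The macrophage genes Emr1, Csf1r and Cd68 were present in all mice, with Cd68 at 2376 to 3396 CPM. The other 2 varied more, with Csf1r at 353 CPM in S.C. mouse 1 to 1128 CPM in S.C. mouse 2. Emr1 ran from 318 CPM in I.P. mouse 1 to 1020 CPM in S.C. mouse 2, with S.C. mouse 1 at 360 CPM. Genes of melanocytes were present in every library too, although the CD45+F4/80+CD11b+ gate should remove melanoma cells. Without Gpnmb, which macrophages also express and which was left out after the values were seen, the 8 melanocyte genes summed to 624 and 707 CPM in the DMSO mice, 484 to 1759 CPM in the I.P. mice, 3063 CPM in S.C. mouse 1 and 753 CPM in S.C. mouse 2, with none of the 8 at 0 in all mice. All 9 with Gpnmb summed to 2285 to 2414, 2985 to 9282 and 6357 to 9038 CPM in the DMSO, I.P. and S.C. mice. Neutrophil genes, marks of cells the Gr-1- gate should remove, summed to 185 to 193 CPM in DMSO, 133 to 185 CPM in I.P. and 293 to 498 CPM in S.C. mice. T and NK cell genes summed to 9.30 to 20.9, 2.80 to 18.9 and 37.4 to 38.7 CPM and B cell genes to 10.3 to 19.7, 8.81 to 20.7 and 25.5 to 29.8 CPM in the same groups. Erythroid genes ranged from 2.68 to 580 CPM and endothelial genes from 3.62 to 10.7 CPM over all mice, while fibroblast genes (Pdgfra at 0 in all) and keratinocyte genes (Krt5 and Krt14 at 0 in all) reached at most 1.23 and 1.82 CPM. In S.C. mouse 1, 0.525% of 9328 genes averaging 5 CPM or more had no count, and in S.C. mouse 2 0.364%, against 0.0107% to 0.129% in the other mice. S.C. mouse 1 stood apart by its melanocyte sum without Gpnmb, whereas more genes without a count were found in both S.C. mice. Calls of named genes that rest on the S.C. mice are given with and without S.C. mouse 1. Chi-square per gene measures how far the counts of 2 mice differ after scaling for depth. Between I.P. mouse 1 and the other I.P. mice it was 159 to 177. It was 50.5 to 113 among those other I.P. mice, 155 between the S.C. mice and 80.9 between the DMSO mice. The RNA is from bulk cells, so a lower value from fewer cells of a type and one from less RNA per cell cannot be told apart.

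The 6 members below passed P under 0.05 in at least 1 comparison of a treated group with DMSO, and their promoters are shown because HIF acts through the short core of the hypoxia response element. Each line is the 250 bases before an annotated start, 5′ to 3′ on the strand of the gene, from RefSeq on GRCm38.p6. Capitals mark ACGTG or GCGTG, on either strand, so that CACGT and CACGC are marked too, and overlapping matches such as CACGTG, which is also an E-box, are joined.
Slc16a1 (chr3:104638414-104638663, + strand): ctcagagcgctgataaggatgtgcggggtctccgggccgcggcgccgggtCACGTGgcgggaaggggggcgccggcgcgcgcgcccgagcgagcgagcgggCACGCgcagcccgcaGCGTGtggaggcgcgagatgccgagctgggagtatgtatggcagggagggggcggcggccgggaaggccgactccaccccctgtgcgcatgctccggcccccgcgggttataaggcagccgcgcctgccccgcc
Slc16a3 (chr11:120948817-120949066, + strand): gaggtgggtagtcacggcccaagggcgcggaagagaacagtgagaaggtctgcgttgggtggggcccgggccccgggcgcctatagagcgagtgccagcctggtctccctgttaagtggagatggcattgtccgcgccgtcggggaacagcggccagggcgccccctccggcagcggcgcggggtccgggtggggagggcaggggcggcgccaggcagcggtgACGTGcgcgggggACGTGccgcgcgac
Bnip3 (chr7:138909507-138909756, - strand): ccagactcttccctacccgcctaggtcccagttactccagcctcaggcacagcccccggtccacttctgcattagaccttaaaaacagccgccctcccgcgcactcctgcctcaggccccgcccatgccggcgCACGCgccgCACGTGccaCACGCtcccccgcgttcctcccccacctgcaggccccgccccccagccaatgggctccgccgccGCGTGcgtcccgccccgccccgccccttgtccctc
Aldoc (chr11:78322823-78323072, + strand): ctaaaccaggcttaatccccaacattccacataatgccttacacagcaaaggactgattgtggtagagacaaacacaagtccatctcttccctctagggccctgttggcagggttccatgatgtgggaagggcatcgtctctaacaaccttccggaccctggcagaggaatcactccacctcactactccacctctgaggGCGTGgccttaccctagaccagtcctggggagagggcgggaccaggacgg
Egln1 (chr8:124949255-124949504, - strand): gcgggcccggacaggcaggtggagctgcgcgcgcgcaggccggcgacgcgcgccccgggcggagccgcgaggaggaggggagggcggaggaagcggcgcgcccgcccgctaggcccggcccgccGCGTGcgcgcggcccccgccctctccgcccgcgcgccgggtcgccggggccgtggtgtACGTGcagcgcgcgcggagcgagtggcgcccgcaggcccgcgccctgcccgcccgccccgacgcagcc
Hilpda (chr6:29272376-29272625, + strand): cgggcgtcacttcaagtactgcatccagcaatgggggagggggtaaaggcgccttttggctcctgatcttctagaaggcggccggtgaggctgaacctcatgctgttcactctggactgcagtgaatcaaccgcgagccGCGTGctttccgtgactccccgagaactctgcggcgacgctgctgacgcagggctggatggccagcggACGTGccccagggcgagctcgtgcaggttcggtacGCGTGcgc

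The Bnip3 promoter held 4 marked stretches, those of Slc16a1 and Hilpda 3 each, those of Slc16a3 and Egln1 2 each, and that of Aldoc 1. The nearest stretch began 8 bases before the start in Hilpda and 134 bases before it in Slc16a1. For Hilpda and Aldoc, which have 2 starts each in the table, the start with more matches is shown, and the first start of Hilpda had no match. Promoters of 34 of the 37 members were in the RefSeq table, and Slc2a3, Bnip3l and Ndrg1 were not. At the first start, 27 of these 34 promoters (79.4%) held a match, compared with 56.9% of 9072 promoters of genes tested in I.P. against DMSO mice and 38.6% of all 27025 promoters. With any annotated start the shares were 94.1%, 61.4% and 41.5%. Members whose windows held no match at any start were Gpi1 and Tpi1. These shares count letters in a window and say nothing of where HIF was bound in these cells.

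Most of the 37 genes differed little between groups, with log2 fold changes within 0.5 of 0 for 31 in I.P. against DMSO, 30 in S.C. against DMSO and 24 in S.C. against I.P. mice. By the criterion of the study, an unadjusted edgeR P under 0.05 and at least a 2-fold change, applied here to the quasi-likelihood test, 0 members were differentially expressed genes (DEGs) in I.P. against DMSO mice, 1 in S.C. against DMSO mice and 1 in S.C. against I.P. mice. Among all genes tested, 2%, 5.06% and 7.05% were DEGs in these comparisons. The 1 DEG was Aldoc both times. At P under 0.05 without the fold limit, 3 of 37 members (8.11%) passed in each comparison, against 3.43% of 12174 genes in I.P. against DMSO, 5.41% of 11680 genes in S.C. against DMSO and 8.59% of 12206 genes in S.C. against I.P. mice. In I.P. against DMSO the 3 were all lower, Slc16a1, Slc16a3 and Bnip3, where 0.879% of all genes passed in that direction. In S.C. against DMSO the 3 were all higher, Aldoc, Egln1 and Hilpda, where 2.5% of all genes did. In S.C. against I.P. they were Slc2a3, Aldoc and Hilpda, all higher, where 3.25% of all genes did. After Benjamini-Hochberg adjustment edgeR's quasi-likelihood test called 0 genes of the whole table in each comparison, with 418, 632 and 1049 genes at an unadjusted P under 0.05, and the members' adjusted p lay between 0.980 and 0.992, between 0.812 and 1.0 and between 0.315 and 1.0. The likelihood ratio test called 10, 179 and 265 genes after adjustment and DESeq2 called 19, 107 and 234, of which 0, 0 and 1 were members with either tool. The comparisons with DMSO share the same 2 control mice.

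**Figure D1:**
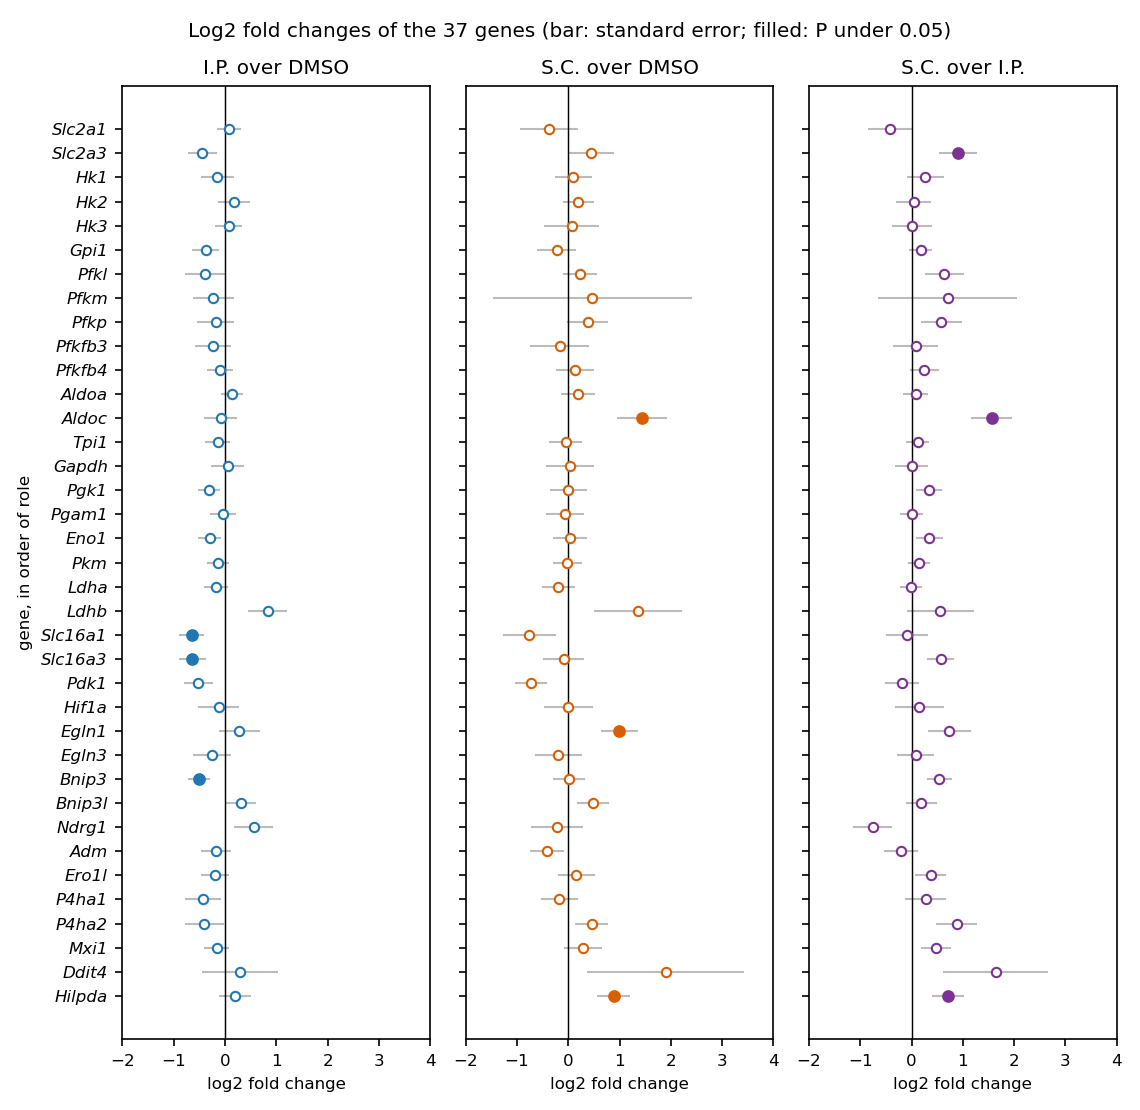
Log2 fold changes of the 37 genes in I.P. over DMSO, S.C. over DMSO and S.C. over I.P. mice, with genes on the vertical axis in order of role and the standard error as a grey bar. Filled points have P under 0.05, which is 3 genes in each panel, and Aldoc is the filled point beyond 1 on the log2 scale in both panels with S.C. mice.

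The direction of the small differences depended on the comparison. In I.P. against DMSO mice 26 of 37 members had a negative log2 fold change (70.3%, against 48.2% of all genes), with a median of -0.16 where that of all genes was 0.02. Without I.P. mouse 1 the members' median was -0.08. In S.C. against DMSO mice 23 were positive, with a median of 0.03 against 0.02. For S.C. over I.P. mice, 31 had a positive sign (83.8%, against 51.8% of all genes), with a median of 0.25 against 0.02. Scaling by library size alone moved the median of all genes in S.C. against DMSO to -0.13, and left 15 members positive there and 24 in the comparison of both routes. It gave 1 higher and 1 lower member at P under 0.05 in both, Aldoc with Pdk1 and Aldoc with Ndrg1. That is 5.41% of the members in each, where 5.86% and 8.65% of all genes passed. The distance of the members' median from that of all genes stayed at -0.18, 0.02 and 0.22 under that scaling. Over the 37 genes, the mean log2 CPM was 7.47 ± 0.06 (SD, n = 2) in DMSO, 7.34 ± 0.13 (SD, n = 4) in I.P. and 7.54 ± 0.10 (SD, n = 2) in the S.C. group.

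The treated mice lay wholly on 1 side of both DMSO mice for some of the members. All 4 I.P. mice were above both DMSO mice for 1 member (Ldhb), where 7.31% of all genes had that pattern, and below both for 6 (16.2%; Slc2a3, Eno1, Slc16a1, Pdk1, Bnip3 and P4ha1), where 6.83% did. Both S.C. mice were above both DMSO mice for 7 (18.9%; Slc2a3, Hk2, Aldoc, Egln1, Bnip3l, P4ha2 and Hilpda) and below for 3 (8.11%; Slc16a1, Pdk1 and Adm), against 17.1% and 17.2% of all genes. Both S.C. mice were above all 4 I.P. mice for 8 (21.6%; Slc2a3, Aldoc, Pkm, Slc16a3, Egln1, Bnip3, P4ha2 and Hilpda) and below for 0, against 8.05% and 10.5% of all genes.

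**Figure D2:**
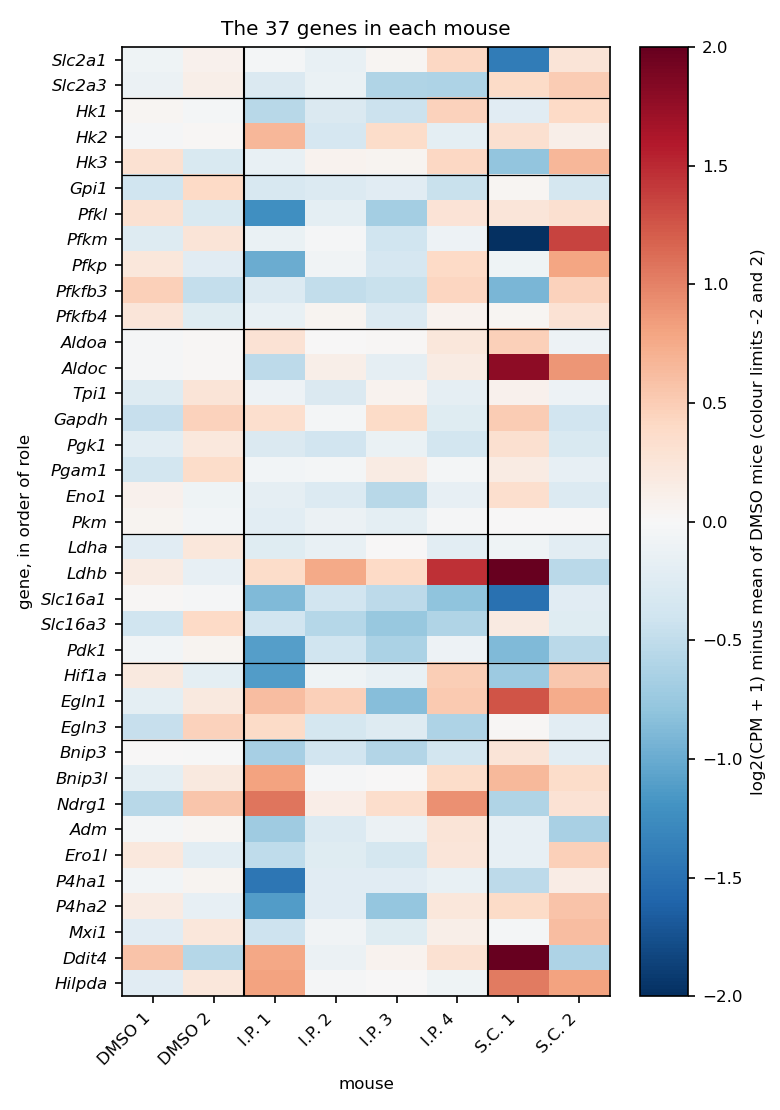
Log2(CPM + 1) of the 37 genes (rows, in order of role) in each of the 8 mice (columns), minus the mean of the DMSO mice, with colours from blue (lower) to red (higher). S.C. mouse 1 differs from S.C. mouse 2 in several rows, with Slc2a1 at 147 against 467 CPM and Ldhb at 107 against 15.7 CPM.

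Of the glucose transporters, Slc2a1 (GLUT1, chr4:119108711-119137983 on GRCm38), the widely expressed basal transporter, was measured at 368 and 415 CPM in the DMSO mice, at 378, 353, 400 and 518 CPM in the I.P. mice and at 147 and 467 CPM in the S.C. mice. The groups overlapped, and the 2 S.C. mice were the lowest and the second highest of the 8. Slc2a3 (GLUT3, chr6:122727809-122801640), a transporter with high affinity for glucose, was at 12.8 and 15.3 CPM in DMSO, at 11.2, 12.6, 8.86 and 8.81 CPM in I.P. and at 18.6 and 20.4 CPM in S.C. mice. The 3 groups did not overlap for Slc2a3, with I.P. mice lowest and S.C. mice highest. It was 1.88-fold higher in S.C. than in I.P. mice (log2 fold change 0.91 ± 0.37 SE, edgeR P under 0.05, adjusted p = 0.552), whereas neither group passed P under 0.05 against DMSO (log2 fold changes of -0.44 in I.P. and 0.45 in S.C. mice). The call was lost without I.P. mouse 2 (1.01), I.P. mouse 3 (0.81), I.P. mouse 4 (0.83) or S.C. mouse 2 (0.83), and it held without S.C. mouse 1 (0.97). Per kilobase of exon, Slc2a1 made up 94.3% to 99.2% of the signal of the 2 transporters.

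Hexokinases trap glucose as glucose 6-phosphate. Hk2 (chr6:82725025-82774454), the inducible form that HIF targets in many cells, was at 71.2 and 74.2 CPM in DMSO, at 115, 57.1, 94.1 and 63.5 CPM in I.P. and at 90.9 and 79.1 CPM in S.C. mice. The I.P. mice lay on both sides of the DMSO mice, and both S.C. mice were above them by a small margin. No hexokinase passed P under 0.05 in any comparison, and the log2 fold changes of Hk1, Hk2 and Hk3 lay between -0.15 and 0.27. Hk3, a form found in myeloid cells, held 68.6% to 84.6% of the hexokinase signal per kilobase in every mouse, and Hk2 held 7.89% to 21.3%.

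In the upper part of glycolysis Pfkl, the liver form of phosphofructokinase, held 60.0% to 74.4% of the signal of the 3 phosphofructokinases per kilobase. This share depends on the exon lengths used, 13401 bases for Pfkp and 6675 bases for Pfkl. In CPM, Pfkp was above Pfkl in I.P. mouse 1 (137 against 133), I.P. mouse 3 (217 against 196) and S.C. mouse 2 (471 against 394). It was below Pfkl in the other mice. Pfkfb3 (chr2:11471433-11554077) makes fructose 2,6-bisphosphate, the main activator of phosphofructokinase, and was at 163 and 83.7 CPM in DMSO, at 96.2, 82.2, 85.7 and 157 CPM in I.P. and at 61.3 and 161 CPM in S.C. mice. Mice of each group were found at both high and low Pfkfb3 levels. None of the 6 genes of this step (Gpi1, Pfkl, Pfkm, Pfkp, Pfkfb3 and Pfkfb4) passed P under 0.05. All 6 log2 fold changes were negative in I.P. against DMSO mice (-0.38 to -0.10) and positive in S.C. against I.P. mice (0.08 to 0.70). The largest of these positive values, 0.70, turned negative without S.C. mouse 2. Pfkm, the muscle form, was at 0 counts in S.C. mouse 1, where 3 counts are 0.202 CPM, and at 14.2 CPM in S.C. mouse 2, compared with 3.56 to 6.14 CPM in the other 6 mice.

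In mean CPM per kilobase of exon, the first 5 of all members were Gapdh, Ldha, Pgam1, Aldoa and Pkm (1242 to 730 CPM per kilobase), all but Ldha enzymes of glycolysis from the aldolase step onward. Aldoc (chr11:78322968-78327781), the brain form of aldolase, was at 11.7 and 12.2 CPM in DMSO, at 8.03, 13.1, 10.4 and 13.5 CPM in I.P. and at 43.5 and 22.8 CPM in S.C. mice. Both S.C. mice were above the other 6. It was 2.72-fold higher in S.C. than in DMSO mice (log2 fold change 1.45 ± 0.49 SE, edgeR P under 0.05, adjusted p = 0.812) and 2.95-fold higher than in I.P. mice (1.56 ± 0.40 SE, edgeR P under 0.05, adjusted p = 0.315). Without S.C. mouse 1 the log2 fold changes were 0.91 and 1.02, still with P under 0.05, and without S.C. mouse 2 they were 1.80 and 1.95. Against DMSO, Aldoc also lost P under 0.05 when either DMSO mouse was left out (1.40 without DMSO mouse 1 and 1.47 without DMSO mouse 2). Aldoa, the main aldolase with 98.6% to 99.7% of the aldolase signal per kilobase, had log2 fold changes of 0.13, 0.19 and 0.08 in the 3 comparisons, none with P under 0.05. The annotation has 2 entries named Aldoa, whose exons were joined, so the level of Aldoa per kilobase, its share and its rank are approximate.

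Pkm (chr9:59656368-59679375), pyruvate kinase, which makes pyruvate and ATP, was among the steadiest members, at 3941 and 3690 CPM in DMSO, at 3292, 3505, 3331 and 3754 CPM in I.P. and at 3854 and 3819 CPM in S.C. mice. Its log2 fold changes were -0.14, -0.02 and 0.15, and the counts do not separate its spliced forms. Gapdh, which is described here after its values were seen because it is often used as a reference gene, was at 3447 and 6492 CPM in the 2 DMSO mice and at 3630 to 6737 CPM in the other 6. The 2 DMSO mice thus spanned nearly the whole range of Gapdh, and its log2 fold changes were 0.05, 0.03 and 0.00. Eno1 was below both DMSO mice in all 4 I.P. mice, at 1421 to 1862 CPM against 1974 and 2221 CPM, without passing P under 0.05. A nearly identical gene, Gm5506, is counted beside it and held about as many reads (Eno1 had 48.2% to 54.8% of their sum), so the level of Eno1 is uncertain, as may be those of Gapdh and other members with processed copies in the genome. The sum of both was 4169 ± 377 CPM (SD, n = 2) in DMSO, 3273 ± 246 CPM (SD, n = 4) in I.P. and 4225 ± 1244 CPM (SD, n = 2) in the S.C. group.

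The lactate and pyruvate branch held 2 of the 3 members that were lower in I.P. mice, both of them lactate transporters. Slc16a1 (MCT1, chr3:104638668-104658462), which carries lactate and pyruvate in either direction, was at 50.8 and 48.7 CPM in DMSO, at 26.6, 37.9, 34.2 and 28.2 CPM in I.P. and at 17.0 and 42.5 CPM in S.C. mice. All 6 treated mice were below both DMSO mice. Slc16a1 fell by 0.65 ± 0.24 SE on the log2 scale in I.P. mice (0.636 of the DMSO level, edgeR P under 0.05, adjusted p = 0.980), and in S.C. mice the log2 fold change was -0.76 ± 0.52 SE without passing P under 0.05 (-0.25 without S.C. mouse 1, and -1.61 with P under 0.05 without S.C. mouse 2). The call in I.P. mice was lost without DMSO mouse 1 (-0.62) or DMSO mouse 2 (-0.68). Slc16a3 (MCT4, chr11:120948480-120960868), the exporter of lactate in glycolytic cells and a HIF target, was at 80.1 and 140 CPM in DMSO, at 81.1, 71.1, 62.1 and 69.2 CPM in I.P. and at 120 and 89.6 CPM in S.C. mice. I.P. mouse 1 was just above the lower DMSO mouse and the other 3 I.P. mice were below it. Slc16a3 fell by 0.64 ± 0.26 SE on the log2 scale in I.P. mice (0.642 of the DMSO level, edgeR P under 0.05, adjusted p = 0.980), but without DMSO mouse 2 the log2 fold change was -0.18 and P was above 0.05. It was also above 0.05 without I.P. mouse 2 (-0.63), I.P. mouse 3 (-0.58) or I.P. mouse 4 (-0.63). Per kilobase, Slc16a3 held 56.8% to 85.5% of the signal of the 2 transporters.

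Ldha (chr7:46841475-46855627), which turns pyruvate into lactate, was at 3223 and 4449 CPM in DMSO, at 3191, 3416, 3805 and 3272 CPM in I.P. and at 3553 and 3271 CPM in S.C. mice. Treated and DMSO mice overlapped, and Ldha held 94.0% to 99.0% of the lactate dehydrogenase signal per kilobase. Ldhb (chr6:142490249-142507957), the heart form, was at 26.3 and 20.7 CPM in DMSO, at 30.3, 40.0, 31.0 and 66.1 CPM in I.P. and at 107 and 15.7 CPM in S.C. mice. All 4 I.P. mice were above both DMSO mice (log2 fold change 0.83 ± 0.37 SE, edgeR P above 0.05, adjusted p = 0.980). In S.C. mice the log2 fold change of 1.36 ± 0.85 SE rested on S.C. mouse 1. It was -0.61 without that mouse and 2.13 without S.C. mouse 2. Without Gpnmb, the summed melanocyte genes were highest in S.C. mouse 1 and next in I.P. mouse 4, at 3063 and 1759 CPM, which are also the mice with the highest Ldhb. With Gpnmb the sum was highest in I.P. mouse 4 (9282 CPM), then in S.C. mouse 2 (9038 CPM) and S.C. mouse 1 (6357 CPM), and the part of melanoma RNA in this difference was not tested. Pdk1 (chr2:71873224-71903858), a kinase that keeps pyruvate out of mitochondria by blocking pyruvate dehydrogenase, was at 142 and 153 CPM in DMSO, at 68.6, 112, 95.3 and 137 CPM in I.P. and at 79.7 and 102 CPM in S.C. mice. All 6 treated mice were below both DMSO mice, with log2 fold changes of -0.52 ± 0.29 SE in I.P. and -0.73 ± 0.31 SE in S.C. mice that did not pass P under 0.05. In S.C. mice it was -0.57 without S.C. mouse 1, and -0.95 with P under 0.05 without S.C. mouse 2.

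**Figure D3:**
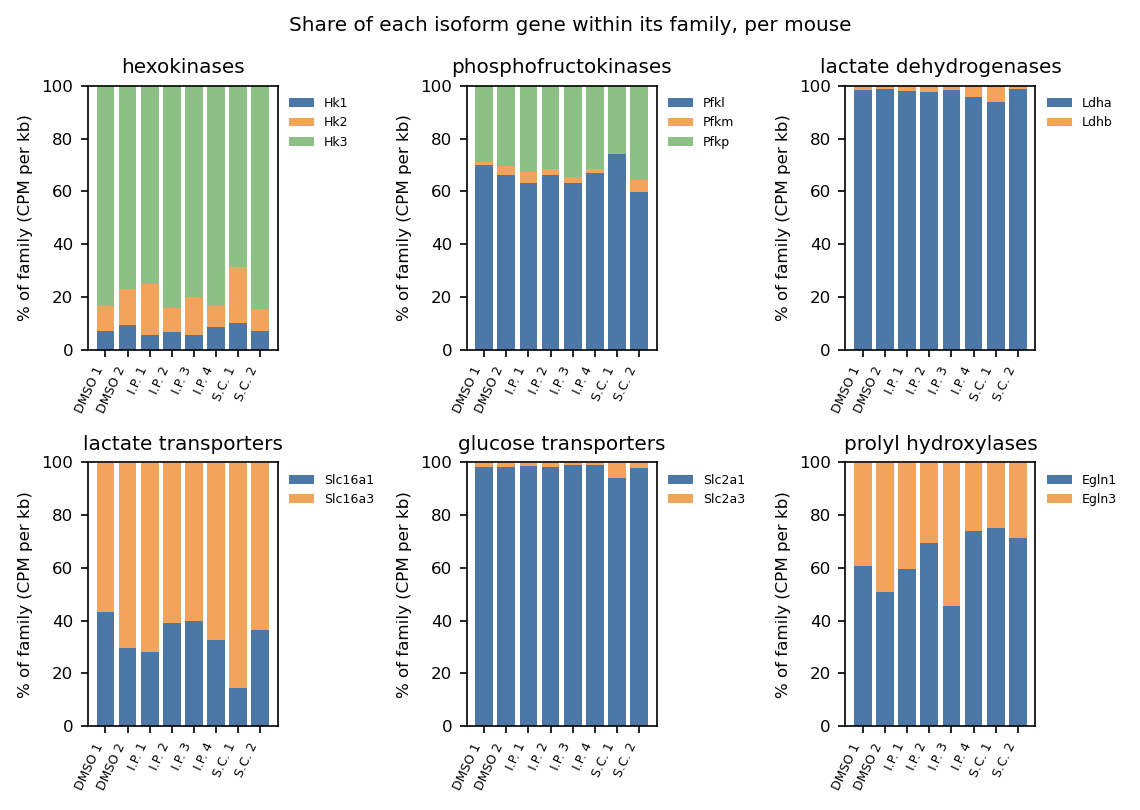
Share of each gene in the signal of its family (vertical axis, % of summed CPM per kilobase of exon) in each of the 8 mice (horizontal axis) for 6 families, with stacked bars that add up to 100. Hk3, Pfkl, Ldha, Slc16a3 and Slc2a1 hold the largest share of their families in every mouse, and Egln1 exceeds Egln3 in all mice but I.P. mouse 3, where it holds 45.5%. The shares depend on the exon lengths used, and in CPM Pfkp was above Pfkl in I.P. mouse 1, I.P. mouse 3 and S.C. mouse 2.

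Hif1a (chr12:73901375-73947530), the HIF subunit whose protein is controlled by oxygen, was at 163 and 124 CPM in DMSO, at 64.9, 134, 127 and 200 CPM in I.P. and at 85.8 and 206 CPM in S.C. mice. The groups overlapped, with log2 fold changes of -0.13, 0.00 and 0.15 in the 3 comparisons. RNA levels of Hif1a do not show the amount of HIF-1 alpha protein. Egln1 (PHD2, chr8:124908587-124949324), the main hydroxylase that marks HIF-1 alpha and a HIF target itself, was at 45.4 and 59.8 CPM in DMSO, at 80.3, 73.0, 28.4 and 75.4 CPM in I.P. and at 126 and 87.7 CPM in S.C. mice. Both S.C. mice were above the other 6, and I.P. mouse 3 was below all others. Egln1 was 1.99-fold higher in S.C. than in DMSO mice (log2 fold change 0.995 ± 0.36 SE, edgeR P under 0.05, adjusted p = 0.846), just under the 2-fold limit. The log2 fold change was 0.71 without S.C. mouse 1 and 1.2 without S.C. mouse 2, both with P under 0.05, whereas the call was lost without DMSO mouse 1 (0.80) or DMSO mouse 2 (1.2). Egln3 (PHD3), another hydroxylase and HIF target, had log2 fold changes between -0.25 and 0.08 and did not pass P under 0.05.

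Among the other HIF targets, Bnip3 (chr7:138890836-138909519), a mitochondrial protein that promotes mitophagy, was at 863 and 855 CPM in DMSO, at 540, 657, 572 and 663 CPM in I.P. and at 1029 and 741 CPM in S.C. mice. All 4 I.P. mice were below the other 4 mice. Bnip3 fell by 0.50 ± 0.21 SE on the log2 scale in I.P. mice (0.705 of the DMSO level, edgeR P under 0.05, adjusted p = 0.980). The call was lost without DMSO mouse 1 (-0.50), DMSO mouse 2 (-0.51), I.P. mouse 2 (-0.54) or I.P. mouse 3 (-0.48). S.C. and DMSO mice overlapped, with a log2 fold change of 0.02. Hilpda (chr6:29272488-29275446), a HIF target that holds back lipid breakdown in lipid droplets, was at 229 and 315 CPM in DMSO, at 469, 265, 270 and 253 CPM in I.P. and at 555 and 470 CPM in S.C. mice. Both S.C. mice were above the other 6, with I.P. mouse 1 close to S.C. mouse 2. Hilpda was 1.85-fold higher in S.C. than in DMSO mice (log2 fold change 0.89 ± 0.32 SE, edgeR P under 0.05, adjusted p = 0.852) and 1.63-fold higher than in I.P. mice (0.71 ± 0.31 SE, edgeR P under 0.05, adjusted p = 0.579). Without S.C. mouse 1 these log2 fold changes were 0.76 and 0.58 and no longer passed P under 0.05, and without S.C. mouse 2 they were 0.96, which passed, and 0.82, which did not. The call against DMSO was also lost without DMSO mouse 1 (0.66) or DMSO mouse 2 (1.13), and that against I.P. mice without I.P. mouse 2 (0.63), I.P. mouse 3 (0.61) or I.P. mouse 4 (0.61).

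Ddit4 (REDD1, chr10:59949669-59951834), an inhibitor of mTORC1 signalling that hypoxia and other stresses induce, was the member with the lowest mean CPM, at 2.58 and 0.632 CPM in DMSO, at 3.12, 1.22, 1.52 and 1.98 CPM in I.P. and at 11.6 and 0.582 CPM in S.C. mice. The S.C. mice were the highest and the lowest of the 8. The log2 fold change of S.C. against DMSO mice was 1.90 ± 1.53 SE and that against I.P. mice 1.64 ± 1.02 SE, neither with P under 0.05, and without S.C. mouse 1 they were -1.46 and -1.74. The remaining 7 genes of this group (Bnip3l, Ndrg1, Adm, Ero1l, P4ha1, P4ha2 and Mxi1) did not pass P under 0.05 in any comparison. Over the 13 genes of HIF, its hydroxylases and other targets, the mean log2 CPM was 6.62 ± 0.05 (SD, n = 2) in DMSO, 6.56 ± 0.18 (SD, n = 4) in I.P. and 6.89 ± 0.11 (SD, n = 2) in the S.C. group, and over the 24 genes of the glycolytic chain it was 7.93 ± 0.06, 7.77 ± 0.12 and 7.90 ± 0.20.

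**Figure D4:**
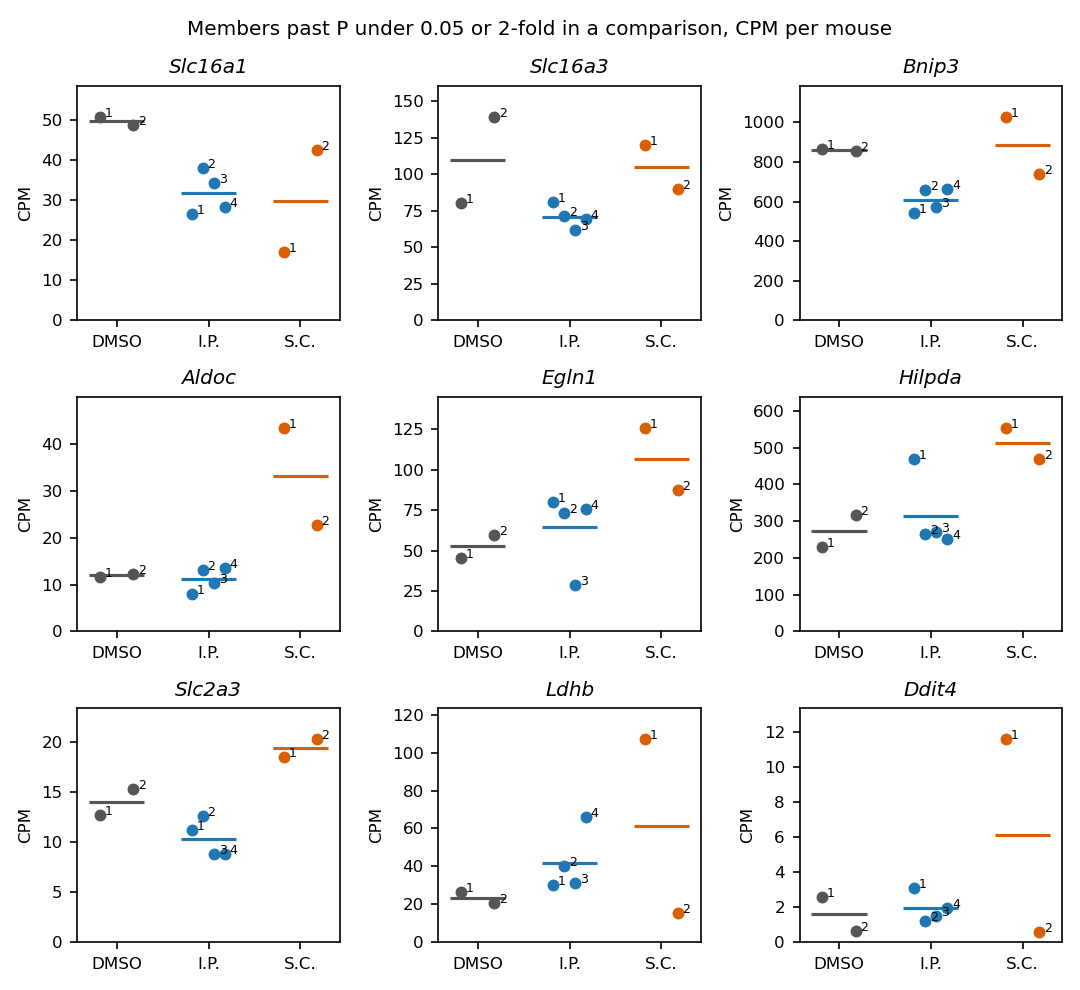
CPM in each mouse (vertical axes, from 0) for the 9 members with P under 0.05 or a 2-fold change in a comparison, by group on the horizontal axes, with points numbered by mouse and lines at the group means. Both S.C. mice are above all others for Aldoc, Egln1, Hilpda and Slc2a3, whereas for Ldhb and Ddit4 only S.C. mouse 1 is.

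S.C. mouse 1 was the highest of the 8 mice for Aldoa, Aldoc, Gapdh, Pgk1, Eno1, Ldhb, Egln1, Bnip3, Ddit4 and Hilpda. It was the lowest for Slc2a1, Hk3, Pfkm, Pfkfb3, Slc16a1 and Ndrg1. This mouse also had the highest sum of the 8 melanocyte genes without Gpnmb (Dct, a pigment enzyme, at 1428 CPM against 142 to 638 CPM in the other 7 mice). For Aldoc, Egln1 and Hilpda, S.C. mouse 2 was above the DMSO mice as well. Its melanocyte sum without Gpnmb was 753 CPM, against 624 and 707 CPM in the DMSO mice, and with Gpnmb 9038 CPM, against 2414 and 2285 CPM, and the part of melanoma RNA in these genes was not tested. With S.C. mouse 1 as the only S.C. mouse, 11 members (29.7%) passed P under 0.05 against DMSO (5 higher and 6 lower), where 34% of all genes did, and with S.C. mouse 2 as the only one 3 passed (8.11%; Pfkm, Aldoc and Egln1, all higher), where 30.4% of all genes did. Both fits assume that a lone sample varies like the DMSO mice. The summed levels of neutrophil, of T and NK cell and of B cell genes were higher in both S.C. mice than in the other 6, though those of some single genes on these lists were not. Levels above the other 6 were also found in both S.C. mice for Aldoc, Egln1, Hilpda, Slc2a3 and P4ha2, and the part of those cells in these differences was not tested. The median ratio of the highest to the lowest mouse over 36 members averaging 5 CPM or more was 1.32 in DMSO, 1.61 in I.P. and 1.44 in S.C. mice, against 1.22, 1.77 and 1.60 over 9328 genes. Genes at 0 counts in a mouse of the group have no ratio and were left out, among them Pfkm in the S.C. mice. By this median the members spread more than other genes in DMSO mice and less in the treated mice. The share above 2-fold in DMSO mice went the other way (2.78% against 5.48%).

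Outside the 37 genes, 113 genes of related lists (other sugar transport and glycolysis, pyruvate dehydrogenase, the pentose phosphate pathway, glycogen, other HIF machinery and further HIF targets) were examined in the same fits. In I.P. against DMSO mice 3 were higher and 3 lower of 92 tested (6.52% at P under 0.05), in S.C. against DMSO mice 2 higher and 4 lower of 89 (6.74%), and in S.C. against I.P. mice 3 higher and 4 lower of 91 (7.69%), and 0 passed after adjustment. The genes named below are those of them that averaged 5 CPM or more. In I.P. mice the adenylate kinase Ak4 fell by 1.36 ± 0.50 SE, Fam162a, a HIF target of mitochondria, fell by 0.62 ± 0.23 SE and the phosphoglucomutase Pgm2 fell by 0.54 ± 0.22 SE on the log2 scale. The log2 fold changes of the genes that rose in I.P. mice were 1.48 ± 0.57 SE for Slc6a8, a creatine transporter, 0.70 ± 0.24 SE for Gyg, the primer of glycogen synthesis, and 0.52 ± 0.22 SE for Taldo1 of the pentose phosphate pathway. Each of these 6 genes lost P under 0.05 when at least 1 of the DMSO mice was left out.

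Vegfa, the angiogenic growth factor and a HIF target, was at 41.3 and 28.5 CPM in DMSO, at 78.6, 28.2, 24.8 and 47.1 CPM in I.P. and at 106 and 112 CPM in S.C. mice. Both S.C. mice were above the other 6. It was higher in S.C. than in DMSO mice by 1.61 ± 0.35 SE on the log2 scale (edgeR P under 0.05, adjusted p = 0.747) and than in I.P. mice by 1.28 ± 0.45 SE (edgeR P under 0.05, adjusted p = 0.484). Against DMSO the log2 fold change of Vegfa was 1.65 without S.C. mouse 1 and passed, and it did not pass without DMSO mouse 2 (1.36). Against I.P. mice it was 1.32 without S.C. mouse 1 and 1.24 without S.C. mouse 2 and passed with neither. Siah2, a ubiquitin ligase that acts on the prolyl hydroxylases, also rose in S.C. against DMSO mice (1.02 ± 0.36 SE), whereas the transferrin receptor Tfrc fell by 1.52 ± 0.34 SE and Ppp1r3b, which targets a phosphatase to glycogen, fell by 1.19 ± 0.36 SE. Without S.C. mouse 1 these log2 fold changes were 0.95 for Siah2, -1.34 for Tfrc and -1.08 for Ppp1r3b, all with P under 0.05, whereas the calls were lost without DMSO mouse 2, and those of Siah2 and Ppp1r3b also without DMSO mouse 1. Fam162a and the muscle enolase Eno3 passed P under 0.05 as higher in S.C. than I.P. mice (0.96 ± 0.31 SE and 1.14 ± 0.48 SE), and both rested on S.C. mouse 1. Fam162a was at 174 and 91.5 CPM in the S.C. mice, at 56.4 to 77.4 CPM in I.P. and at 91.8 and 117 CPM in DMSO mice, and its log2 fold change without S.C. mouse 1 was 0.42, above P of 0.05. Eno3 was at 28.3 CPM in S.C. mouse 1, at 7.05 to 10.8 CPM in I.P. and at 11.7 and 13.8 CPM in DMSO mice, with S.C. mouse 2 between the I.P. and the DMSO mice, and without S.C. mouse 1 its log2 fold change was 0.30, above P of 0.05, as it was without any 1 of the I.P. mice. Also in S.C. against I.P. mice, the heme oxygenase Hmox1 fell by 1.24 ± 0.46 SE, with the 2 DMSO mice at 1077 and 4316 CPM of Hmox1. The log2 fold change of Hmox1 was -1.53 without S.C. mouse 1, with P under 0.05, and the call was lost without S.C. mouse 2 (-1.01) or I.P. mouse 1 (-1.18).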

How the data were processed

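RNA-seq counts from TAMs of 8 mice were used. The authors deposited whole-number counts per gene symbol without normalization. The methods name bowtie2 and RSEM, the submitters' processing notes name TopHat2 and edgeR, both name the mouse build mm10, and which aligner made the counts is not stated. Columns without a sample numbered 0. Mice were grouped by their sample labels. No source says whether libraries were prepared in batches.

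The two-sided quasi-likelihood test of edgeR 4.0.16 (R 4.3.3, limma 3.58.1) was run for 1 pair of groups at a time, after filterByExpr (minimum count 10, minimum total 15) and TMM scaling. P values were adjusted by Benjamini-Hochberg over all genes tested. Standard errors are the log2 fold change over the root of F. CPM used TMM factors over all 8 mice, and mean log2 CPM a prior count of 2. Depth is 14127506 to 17577466 counts per mouse, and intervals or floors from counts cover counting error only. CPM per kilobase divides by the union of exons in GENCODE vM21, whose coordinates (GRCm38) are given. Promoters are from RefSeq.

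The members and all gene lists were chosen with earlier results of these data known. Values in every mouse are given for members with P under 0.05 or a 2-fold change in any comparison and for Slc2a1, Hk2, Pfkfb3, Pkm, Ldha, Slc16a3, Pdk1 and Hif1a. Of the related lists, genes with P under 0.05 and a mean of at least 5 CPM are named, up to 6 per comparison. Alternatives tried were DESeq2 1.42.0, library size only, RLE size factors, every gene with a count, genes at 1 CPM or more in 2 libraries, the likelihood ratio test, all 3 groups in 1 fit, a block for the replicate number and leaving out each mouse. A block with the numbers crossed was chosen after the data were seen. The fitting procedure was run on simulated counts with changes larger than most seen here and 1 spread for all genes, which does not test the calls reported.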

Additional observations from a re-analysis of the deposited data

Results flagged for a closer look

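In the I.P. group, 4 of the 37 members had 1 mouse far from the other 3. Egln1 was at 28.4 CPM in I.P. mouse 3 and at 73.0 to 80.3 CPM in the others, and Pgam1, the phosphoglycerate mutase, was at 1675 CPM in the same mouse and at 1445 to 1457 CPM in the others. P4ha1, a subunit of the collagen prolyl hydroxylase, was at 56.6 CPM in I.P. mouse 1 and at 133 to 141 CPM in the others, and Hilpda was at 469 CPM in that mouse and at 253 to 270 CPM in the others. Chance flags about 1 in 20 groups, and only the I.P. group is large enough for this rule. The share of all genes flagged by this rule was not counted, so these 4 are not set apart from other genes.

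In the direct comparison of the treated groups 3 members had P under 0.05 (8.11% of 37, against 8.59% of all genes), and route and dose cannot be told apart there. The log2 differences (S.C. minus I.P.) were 0.91 for Slc2a3, 1.56 for Aldoc and 0.71 for Hilpda, each with an edgeR P under 0.05 and none with an adjusted p under 0.05 in that test. In all 3 genes both S.C. mice were above all 4 I.P. mice.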

How the results depend on the processing

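Signs of Slc16a1, Slc16a3, Bnip3, Aldoc, Egln1, Hilpda and Slc2a3 in the comparisons in which they passed P under 0.05 were kept under every alternative run, although each lost the call under some. Signs turned without S.C. mouse 1 for Ldhb against DMSO (-0.61) and for Ddit4 against DMSO (-1.46) and against I.P. mice (-1.74). Among the other members, none of which had P under 0.05 or a 2-fold change, the sign against DMSO turned for 9 of 32 without S.C. mouse 1, 11 without S.C. mouse 2 and 13 without DMSO mouse 2, and against I.P. mice for 10 of 33 without S.C. mouse 1 and 8 without S.C. mouse 2. When mice were left out, the log2 fold change of Ldhb against DMSO ran from -0.61 to 2.13, and that of Ddit4 from -1.46 to 3.21 against DMSO and from -1.74 to 2.56 against I.P. mice. In I.P. against DMSO mice 2.02% of all genes passed P under 0.05 with all 3 groups in 1 fit. With 1 I.P. mouse left out the share was 2.59% to 4.36%. The count of members at P under 0.05 was 1 (2.7%) in that fit, and 1 to 4 (2.7% to 10.8%) with 1 I.P. mouse left out. In S.C. against DMSO mice it was 0 to 11 when mice were left out (0 without either DMSO mouse, 11 without S.C. mouse 2), while all genes at that P numbered 208 and 114 without DMSO mouse 1 and 2 and 3714 and 4203 without S.C. mouse 1 and 2. In S.C. against I.P. mice it was 5 (13.5%) with all 3 groups in 1 fit, where 10.8% of all genes passed. With 1 I.P. mouse left out, 1 to 4 members passed there (1 without I.P. mouse 2 or 3). These are 2.7% to 10.8% of the members, against 5.7% to 9.63% of all genes. The DEGs numbered 0 to 1 in I.P. against DMSO (1, Ndrg1, without DMSO mouse 2), 0 to 8 in S.C. against DMSO (0 without either DMSO mouse, 8 without S.C. mouse 2) and 1 to 6 in S.C. against I.P. mice (2 without I.P. mouse 4, 3 without S.C. mouse 1, 6 without S.C. mouse 2). RLE size factors and DESeq2 gave 2 DEGs each in S.C. against DMSO mice. The median log2 fold change of the members in S.C. against DMSO mice was -0.12 with library size only and -0.035 to 0.21 when mice were left out. It stayed between -0.25 and -0.08 in I.P. against DMSO and between 0.14 and 0.33 in S.C. against I.P. mice under all 14 alternatives of each. The causes were not tested. Where leaving out a mouse left a group with 1 sample, that sample was assumed to vary like the others.

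The sample labels number the mice but do not say that same-numbered mice are pairs. Correlations of their deviations from group means lay between -0.15 and 0.09. In a group of 2 mice the 2 deviations mirror each other, so these values cannot decide whether mice were paired. With the replicate number as a block, 0 members passed P under 0.05 in I.P. against DMSO and 0 in S.C. against DMSO mice, where there were 0 DEGs. In S.C. against I.P. mice 3 passed (8.11%; Pfkl, Pfkp and P4ha2) with 2 DEGs. Of all genes, 2.74%, 3.69% and 3.63% passed P under 0.05 in these comparisons. With the pairing crossed in S.C. against DMSO mice, chosen after the data were seen, 3 members passed and 1 was a DEG. These 3 are 8.11% of the members, where 4.67% of all genes passed.

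Groups of 2 mice limit every comparison here, and the 2 routes differ also in dose. At this depth 36 of the 37 members had a mean of at least 5 CPM, above the floor. Counts limit the precision of Ddit4, at about 1 to 3 CPM in most mice, and of Pfkm, at 0 counts in S.C. mouse 1.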

Other observations

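Between the 2 DMSO mice, 22 of the 37 members were higher in DMSO mouse 2, and between the 2 S.C. mice 20 were higher in S.C. mouse 1. Over the members with a mean of at least 5 CPM, the highest mouse exceeded the lowest by more than 2-fold within a group for 1 member in DMSO, 11 in I.P. and 6 in S.C. mice. These are 2.78%, 30.6% and 17.1% of the members with a ratio, against 5.48%, 37.1% and 33.1% of all genes at that level. Genes at 0 counts in a mouse have no ratio and were left out. In the S.C. mice this left 35 members, without Pfkm (0 and 14.2 CPM), and 9248 of 9328 genes.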
